A study of Macaca radiata with 6 samples.

Results

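The nuclear receptors NR5A1, NR5A2 and NR4A1 were examined in the corpus luteum (CL) of the bonnet monkey after withdrawal of LH support. The members were all probe sets, that is, groups of array probes for a transcript, whose platform annotation gave 1 of these 3 gene symbols and no other. This rule found 6 of 52707 probe sets, which were 1 for NR5A1, 3 for NR5A2 and 2 for NR4A1, and 3 of 14132 genes. Adult female Macaca radiata were given 1 s.c. injection of Cetrorelix (CET) at 150 µg/kg BW, which blocks the GnRH receptor and so removes LH and then progesterone (P4), on day 7 of the luteal phase. The vehicle animals (VEH) received 5.25% glucose on the same luteal day, and CL were removed 24 h later in both groups. Each of 3 CET samples (replicates 1, 2 and 3) and 3 VEH samples (replicates 4, 5 and 6) was hybridised to 1 rhesus macaque array, so the probes come from the sequence of a relative, the rhesus macaque, and not of the bonnet monkey. The series describes the CL of both groups as taken from the same monkeys, but no label ties a CET sample to a VEH sample, and p-values here measure only the spread between these samples.

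NR5A1 (steroidogenic factor, SF-1) and NR5A2 (liver receptor homolog, LRH-1) are closely related receptors that bind as monomers to an extended response element found in the promoters of genes such as STAR and CYP11A1. NR5A2 is strongly expressed in granulosa and luteal cells, and its loss from mouse granulosa cells blocks ovulation and luteal development. NR4A1 (NUR77) is an immediate early receptor whose transcription is switched on by LH and cAMP within a short time, and it binds a related element in steroidogenic promoters. Because the 3 receptors meet on the same kind of promoter, their levels after LH/P4 depletion were set beside those of their relatives, partners and target genes.

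Depth and quality of the arrays bear on each value below. All 6 arrays had a trimmed mean signal of 500, and STAR, which carries cholesterol to the inner mitochondrial membrane, had signals of 5408 to 43965 in CET CL and of 34265 to 57984 in VEH CL, so the luteal steroidogenic cells were represented on every array. The ratio of the 3' to the 5' control probe sets, which is high when RNA is degraded or incompletely copied, was 5.89, 142.9 and 3.03 for GAPDH in CET replicates 1, 2 and 3, and 7.31, 1.79 and 3.07 in VEH replicates 4, 5 and 6. For ACTB the ratios were 9.42, 37.15 and 3.96 in CET replicates 1, 2 and 3, and 22.38, 2.12 and 3.36 in VEH replicates 4, 5 and 6. CET replicate 2 was highest for both controls, and VEH replicate 4 came next for both. All 3 CET arrays had a lower mean Spearman rho with the other CET arrays (0.664, 0.710 and 0.709 for CET replicates 1, 2 and 3) than with the VEH arrays (0.756, 0.727 and 0.733). The median SD between replicates was 0.85 on the log2 scale. Of 9 steroidogenic luteal markers, 6 had a probe set and all 6 had a lower mean after CET, with summed signals of 29050 to 148200 in CET CL and of 101500 to 182500 in VEH CL. Endothelial markers had summed signals of 12880 to 22710 in CET CL and of 17880 to 24970 in VEH CL. Of 9 measured ones (defined below), 8 had a lower mean after CET and 1 a higher mean. Fibroblast markers had sums of 16700 to 29900 in CET CL and of 29410 to 40630 in VEH CL. Of 6 measured ones, however, 3 were higher and 3 lower after CET, with a median log2 fold change of -0.075. Macrophage and leukocyte markers had sums of 2978 to 6197 in CET CL and of 3729 to 5044 in VEH CL. Of these, 3 were higher and 5 lower. Pericyte and epithelial markers had 1 higher and 3 lower in each list, and erythrocyte markers had 1 higher and 1 lower. The part of these differences in the values of the receptors was not tested, and in whole CL fewer cells of a type and less RNA per cell cannot be told apart.

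At the level of mean log2 signal, NR5A2 was lower after CET in all 3 of its probe sets, and NR5A1 was almost the same in both groups. NR4A1 gave opposite signs in its 2 probe sets, of which 1 was dim. On the linear scale, both NR4A1 probe sets had a higher mean signal in CET. None of the 6 probe sets passed the test. In limma with Benjamini-Hochberg adjustment over all probe sets, 0 of 52707 passed an adjusted p of 0.05 (0%), and 0 passed with the 2-group test of equal variances that the methods name. No adjusted p was below 0.827. Without adjustment, limma called 2840 probe sets at 0.05 (5.39%), of which 1388 were higher and 1452 lower in CET, and the test of the methods called 2729. One of the 6 member probe sets was among those called by limma without adjustment.

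**Figure D1:**
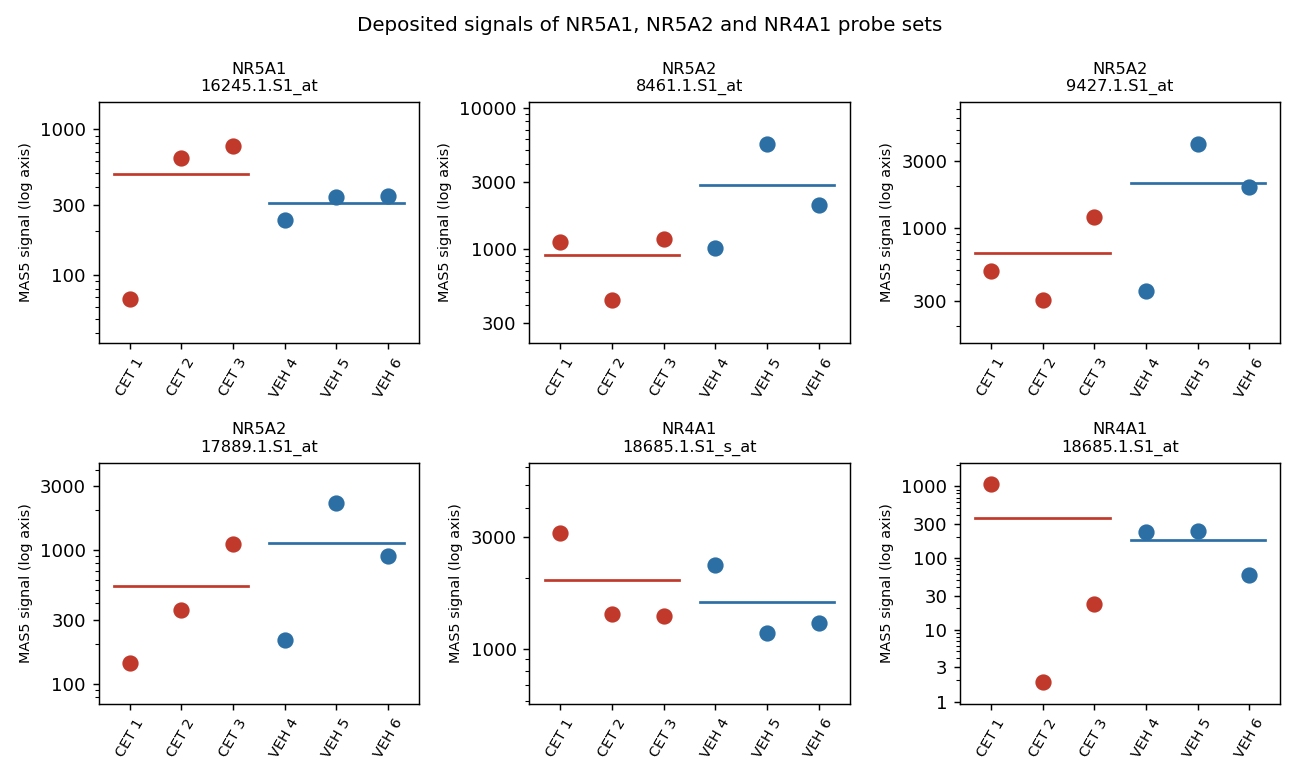
Deposited MAS5 signal (log axis) of each NR5A1, NR5A2 and NR4A1 probe set on each array, with CET in red on the left and VEH in blue on the right, and lines at the mean signal of each group. The groups overlap in all 6 panels, VEH 5 is the highest array in each NR5A2 panel, and CET 1 is the lowest NR5A1 array and the highest NR4A1 array.

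NR5A2 is the receptor of the family most closely tied to the mature CL. At its brightest probe set, MmugDNA.8461.1.S1_at, the signals were 1120.2, 435 and 1188 in CET replicates 1, 2 and 3, and 1019, 5497 and 2063 in VEH replicates 4, 5 and 6. VEH replicates 5 and 6 were above every CET array, whereas VEH replicate 4 was below CET replicates 1 and 3, so that the groups overlapped. The mean log2 signal was 9.72 ± 0.87 in CET and 11.06 ± 1.05 in VEH (SD, n = 3 each), which is a log2 fold change of -1.34 (SE 0.61, 95% interval -2.67 to -0.0053) or a 2.53-fold higher geometric mean in VEH. The unadjusted p from limma was 0.0492, the adjusted p was 0.827, and the exact two-sided permutation p was 0.3, where 3 against 3 arrays cannot go below 0.1. Of all probe sets, 6.03% had a log2 fold change as low as this or lower. The value depended on single arrays: leaving out VEH replicate 5 gave -0.77, CET replicate 2 gave -0.86, and VEH replicate 4 gave -1.82.

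The other NR5A2 probe sets gave a similar picture with a wider spread. At the second, MmugDNA.9427.1.S1_at, the signals were 492, 305 and 1193 in CET replicates 1, 2 and 3, and 357, 3934 and 1966 in VEH replicates 4, 5 and 6. The order of the arrays was the same as at the brightest probe set, with CET replicate 2 lowest and VEH replicate 5 highest. The log2 fold change was -1.23 (SE 0.79, 95% interval -2.96 to 0.50), with an adjusted p of 0.828 from limma. Single arrays moved it to -0.54 (VEH replicate 5 left out), -0.81 (CET replicate 2 left out) and -2.16 (VEH replicate 4 left out). At the third, MmugDNA.17889.1.S1_at, the signals were 143, 354 and 1115 in CET replicates 1, 2 and 3, and 212, 2264 and 904 in VEH replicates 4, 5 and 6. Here CET replicate 1 rather than CET replicate 2 was lowest, and CET replicate 3 lay above VEH replicate 6. The log2 fold change was -0.97 (SE 0.91, 95% interval -2.97 to 1.03), with an adjusted p of 0.867 from limma. Leaving out CET replicate 1 or VEH replicate 5 brought it to -0.20 or -0.22, and leaving out CET replicate 3 or VEH replicate 4 to -1.81 or -1.89.

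Across arrays, centred log2 values of the NR5A2 probe sets differed from each other by 0.53 on average for the brightest and the second, by 0.53 for the second and the third, and by 0.95 for the brightest and the third. The 3 probe sets shared VEH replicate 5 as the highest array and VEH replicate 4 as the lowest VEH array. The pattern with CET replicate 2 lowest and VEH replicate 5 highest, as at both brighter NR5A2 probe sets, was also found at 899 of 10929 measured genes (8.23%), where measured means a brightest probe set above the 40th percentile of mean log2 signal. CET replicate 2 was the lowest array for 22.2% of measured genes and VEH replicate 5 the highest for 18.1%.

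The values of the brightest NR5A2 probe set and the control ratio of the arrays ran in opposite order. CET replicate 2, where the log2 ratio averaged over the GAPDH and ACTB controls was highest (6.19), had the lowest NR5A2 value, and VEH replicate 5, with the lowest ratio (0.96), had the highest. Over all 6 arrays the order of the NR5A2 values was the reverse of the order of the ratios, and VEH replicate 4, the VEH array with the highest ratio (3.68), had the lowest NR5A2 value of its group. With the ratio as a covariate, the log2 fold change was -0.64 (SE 0.48) at the brightest probe set, -0.30 at the second and -0.27 at the third. The mean log2 ratios were 2.90, 6.19 and 1.79 in CET replicates 1, 2 and 3, and 3.68, 0.96 and 1.68 in VEH replicates 4, 5 and 6, so the ratio and the treatment overlapped only in part. The part of RNA quality in the NR5A2 difference was not tested beyond this fit.

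**Figure D2:**
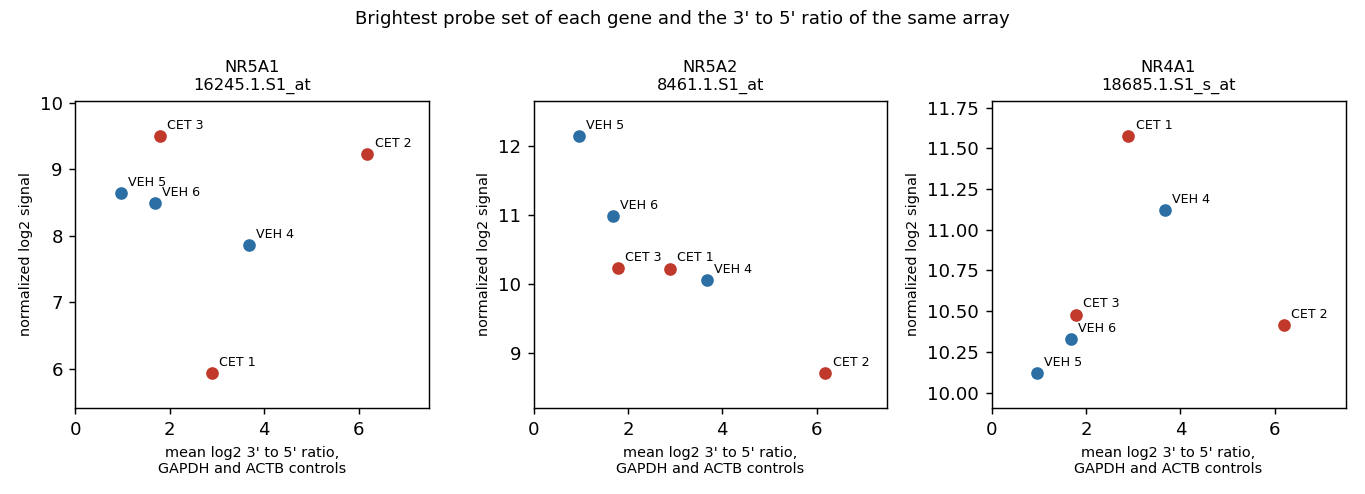
Normalized log2 signal of the brightest probe set of each gene (vertical axis) against the log2 ratio of 3' to 5' control signals on the same array, averaged over GAPDH and ACTB (horizontal axis), with 1 point per array, CET red and VEH blue. The NR5A2 values lie in the reverse order of the ratio, with VEH 5 at 0.96 highest and CET 2 at 6.19 lowest, and the NR5A1 and NR4A1 values have no such order.

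NR5A1, the related receptor that governs steroidogenic genes in gonads and adrenal, was read by a single probe set, MmugDNA.16245.1.S1_at. Its signals were 68.3, 634 and 770.0 in CET replicates 1, 2 and 3, and 239, 344 and 350.0 in VEH replicates 4, 5 and 6. The VEH arrays lay close together, and the CET arrays fell on both sides of them, with CET replicate 1 below all VEH arrays and CET replicates 2 and 3 above them all. The mean log2 signal was 8.22 ± 1.98 in CET and 8.33 ± 0.42 in VEH (SD, n = 3 each). This gave a log2 fold change of -0.11 (SE 0.88, 95% interval -2.03 to 1.81), with an adjusted p of 0.986 from limma and an exact permutation p of 1. On the linear scale the mean signal was 491 in CET and 311 in VEH, a ratio of 1.58, so the direction depended on the scale of averaging. Leaving out CET replicate 1 gave a log2 fold change of 1.06, and leaving out CET replicates 3 and 2 in turn gave -0.76 and -0.62. The values without VEH replicates 4, 5 and 6 in turn were -0.35, 0.037 and -0.031. The interval covers a change of either sign by more than 3-fold, and whether NR5A1 differed was not detectable with these arrays.

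NR4A1, the receptor of the immediate early response, was read by 2 probe sets that did not move together. At the brighter one, MmugDNA.18685.1.S1_s_at, whose suffix marks probes that can be shared by several transcripts, the signals were 3126, 1411 and 1378 in CET replicates 1, 2 and 3, and 2275, 1167 and 1291 in VEH replicates 4, 5 and 6. CET replicate 1 and VEH replicate 4 were highest, and the other 4 arrays lay near each other with both CET arrays above both VEH arrays. The mean log2 signal was 10.82 ± 0.65 in CET and 10.52 ± 0.53 in VEH (SD, n = 3 each). The difference was 0.30 on the log2 scale (SE 0.48, 95% interval -0.75 to 1.35), with an adjusted p of 0.919 from limma and an exact permutation p of 0.5. Single arrays moved it to -0.076 without CET replicate 1, 0.096 without VEH replicate 5 and 0.20 without VEH replicate 6. It was 0.59 without VEH replicate 4, 0.52 without CET replicate 2 and 0.49 without CET replicate 3.

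The other NR4A1 probe set, MmugDNA.18685.1.S1_at, was dim in both groups. Its signals were 1077, 1.88 and 23.2 in CET replicates 1, 2 and 3, and 235, 238 and 57.4 in VEH replicates 4, 5 and 6. CET replicate 1 was again the highest array, and CET replicates 2 and 3 were below all VEH arrays. The log2 fold change was -1.94 (SE 1.70, 95% interval -5.68 to 1.79), with an adjusted p of 0.861 from limma. On the linear scale the mean signal was 367 in CET and 177 in VEH, so its direction depended on the scale of averaging. Leaving out CET replicate 1 gave -4.49 and leaving out CET replicate 2 gave -0.16, and the value was 0.11 where values below the 20th percentile of each array were raised to it. Centred log2 values of the 2 NR4A1 probe sets differed by 2.13 on average across the arrays.

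The 3 genes also differed in which array was extreme. CET replicate 1 was lowest and CET replicate 3 highest for NR5A1, a pattern of 465 of 10929 measured genes (4.25%). CET replicate 1 was highest and VEH replicate 5 lowest for the brighter NR4A1 probe set, a pattern of 185 measured genes (1.69%). VEH replicate 5 was thus highest for NR5A2 and lowest for the brighter NR4A1 probe set, but at the dim NR4A1 probe set it was the highest VEH array. Differences in change between the genes were tested at the brightest probe sets by exact two-sided permutation over the arrays for 3 pairs. The change of NR5A2 was 1.64 on the log2 scale below that of NR4A1 (difference -1.64, exact p = 0.2, adjusted over the 3 pairs 0.6). It was 1.23 below that of NR5A1 (difference -1.23, exact p = 0.5, adjusted 0.75), and the change of NR4A1 was 0.41 above that of NR5A1 (exact p = 1, adjusted 1). Leaving out CET replicate 1 gave -2.65 for NR5A2 and NR5A1, and leaving out CET replicate 2, VEH replicate 5 or CET replicate 3 gave -0.24, -0.81 or -0.88. The NR5A2 and NR4A1 difference was -0.87 without VEH replicate 5, and the NR4A1 and NR5A1 difference ran between -1.13 (CET replicate 1 left out) and 1.25 (CET replicate 3 left out), with 1.13 when CET replicate 2 and 0.93, 0.059 and 0.23 when VEH replicates 4, 5 and 6 were left out in turn. With 3 against 3 arrays this exact permutation test cannot go below p = 0.1, so it could not have shown a difference at 0.05.

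**Figure D3:**
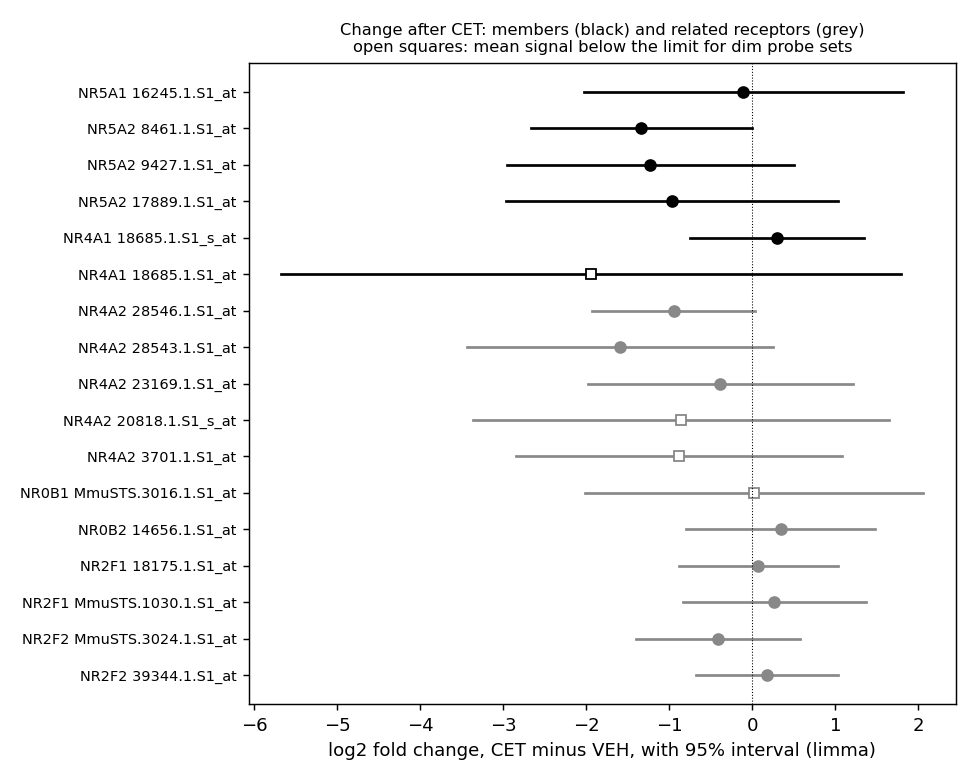
Log2 fold change (CET minus VEH, horizontal axis) with its 95% interval from limma for the 6 member probe sets (black) and for the probe sets of NR4A2, NR0B1, NR0B2, NR2F1 and NR2F2 (grey), with open squares for probe sets below the limit for dim signals. The interval of the brightest NR5A2 probe set, -2.67 to -0.0053, is the only 1 drawn that does not cross 0.

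Among the nearest relatives, NR4A2 (NURR1) is the other immediate early receptor of the NR4A subfamily on the array under its own symbol, and NR4A3 was not analysed here. NR4A2 had 5 probe sets, and all 5 had a lower mean after CET. At the brightest, the signals were 962, 572 and 642 in CET replicates 1, 2 and 3, and 1215, 1454 and 1405 in VEH replicates 4, 5 and 6. The CET arrays were all below the VEH arrays, which was also so for 2769 of all probe sets (5.25%). The log2 fold change was -0.95 (SE 0.45), with an unadjusted p of 0.0567 and an adjusted p of 0.827 from limma. The other NR4A2 probe sets gave log2 fold changes of -1.60, -0.39, -0.87 and -0.89, the last pair dim, and the groups overlapped at each of these 4. At the probe sets with -1.60 and -0.39, the CET mean log2 signals (7.32 and 7.42) also lay under the dim limit. NR0B1 (DAX-1) and NR0B2 (SHP), which lack a classical DNA-binding domain and repress NR5A1 and NR5A2, had log2 fold changes of 0.02 (SE 0.93, dim) and 0.34 (SE 0.52). For NR0B2 this was 0.025 without CET replicate 3, 0.21 without VEH replicate 6 and 0.53 without CET replicate 1. NR2F1 and NR2F2 (COUP-TFs), which compete for elements in steroidogenic promoters, had log2 fold changes of 0.07 and -0.42 at their brightest probe sets (SE 0.44 and 0.45) and 0.26 and 0.18 at the other ones. For NR2F2 the brightest probe set gave -0.13 and -0.23 without VEH replicate 6 and CET replicate 2, -0.71 and -0.67 without CET replicate 1 and VEH replicate 5, -0.81 with array medians subtracted and -0.22 with cyclic loess. The sign for NR0B1 turned with cyclic loess (-0.093), and that for NR2F1 turned in the signals as deposited (-0.064) and with array medians subtracted (-0.27).

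In the wider list of 23 orphan nuclear receptors, 16 had a probe set and 12 were measured, 6 with a higher and 6 with a lower mean. The median log2 fold change was -0.02, against 0.0025 over all probe sets, and it was -0.19 with array medians subtracted, turned to 0.02 with the signals as deposited and 0.01 with cyclic loess, and ran between -0.24 (CET replicate 3 left out) and 0.061 (CET replicate 1 left out). NR5A2 had the lowest fold change of the list and was its only measured member with an unadjusted p below 0.05 in limma, where 5.39% of all probe sets were. RORA, a receptor of the circadian clock and of lipid metabolism, was next, with signals of 193, 52.9 and 268 in CET CL and of 266, 315 and 261 in VEH CL, and with a log2 fold change of -1.21 (SE 0.74) that was -0.56 without CET replicate 2 and -0.60 with the control ratio as a covariate. The CET mean of RORA lay under the dim limit, so it counts as measured only through VEH. Both group means were above the limit for 10 of the 12 measured orphan receptors, 5 with a higher and 5 with a lower mean. Of 14 receptors for fatty acids, retinoids, bile acids and oxysterols, 12 had a probe set and 10 were measured, 5 with a higher and 5 with a lower mean and none past an unadjusted p of 0.05. PPARG, which drives lipid storage, was dim and so not among these 10. It had signals of 86.0, 66.1 and 87.7 in CET CL and of 122, 431 and 341 in VEH CL. Its log2 fold change was -1.91 (SE 0.78, unadjusted limma p = 0.0307, adjusted limma p = 0.827, exact permutation p = 0.1). PPARA, which drives fatty acid oxidation, was also dim and had the opposite sign at 1.52 (SE 0.81), and NR1H4, the bile acid receptor FXR, whose CET mean was also under the dim limit, had -1.08 (SE 0.65). Among receptors for steroid hormones, 4 of 6 had a probe set and 2 were measured, ESR2 (oestrogen receptor beta) at a log2 fold change of 0.48 and NR3C1 (glucocorticoid receptor) at 0.18. For ESR2 the value was 0.10 and 0.13 without VEH replicate 6 and CET replicate 1, and 0.94 and 0.81 without CET replicate 2 and VEH replicate 4. PGR, the progesterone receptor, was dim at 0.05. The signs of NR3C1 and PGR depended on the scaling, with -0.010 for NR3C1 after subtraction of array medians and -0.028 for PGR with cyclic loess.

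Proteins that act with these receptors were described from a list of 39 partners and coregulators, of which 31 had a probe set and 28 were measured. Of these, 10 had a higher and 18 a lower mean after CET, where 49.9% of all probe sets had a lower mean. The median log2 fold change was -0.24, and it was -0.48 with array medians subtracted and -0.14 with cyclic loess. CREM, a transcription factor of the cAMP pathway, was the 1 of 28 with an unadjusted p below 0.05, a share no higher than the 5.39% of all probe sets. Its signals were 738, 291 and 439 in CET replicates 1, 2 and 3, and 614, 2692 and 1109 in VEH replicates 4, 5 and 6. VEH replicate 5 was highest and CET replicate 2 lowest, as for NR5A2, and the groups overlapped through CET replicate 1. CREM thus had a log2 fold change of -1.41 (SE 0.59, adjusted limma p = 0.827, exact permutation p = 0.2), and of -0.88 without VEH replicate 5. EDF1, a bridging factor between NR5A1 and the basal transcription machinery, had signals of 1778, 496 and 114 in CET CL and of 2349, 1304 and 1387 in VEH CL, with a log2 fold change of -1.85 (SE 0.86) that became -0.77 when CET replicate 3 and -2.93 when CET replicate 1 was left out. PPARGC1A, a coactivator of NR5A receptors best known from mitochondrial biogenesis, was dim and had a log2 fold change of 1.91 (SE 1.02) that was 1.13 without CET replicate 1, 3.04 without CET replicate 2 and 1.17 with the floor.

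Genes taken as targets of NR5A and NR4A receptors in steroidogenic cells were described from a list of 38, of which 24 had a probe set and 20 were measured. The list also holds SF3A1, a splicing factor, which counts as a measured gene with a higher mean (log2 fold change 0.059). A lower mean after CET was found for 14 and a higher mean for 6, where 49.9% of all probe sets had a lower mean. In limma, 5 lower and 1 higher had an unadjusted p below 0.05, where 5.39% of all probe sets had, and 0 passed after adjustment, and the median log2 fold change was -0.66. The CET arrays lay below all VEH arrays for 6 of the 20 measured targets, which was so for 5.25% of all probe sets, and above them for 1, which was so for 5.9% of all probe sets. One of the lower called targets, PTX3, counts as measured only through VEH. Among the 19 targets with both group means above the dim limit, 4 lower and 1 higher had an unadjusted p below 0.05, the CET arrays lay below all VEH arrays for 5, and the median was -0.56. The list median relative to the VEH mean was 0.03, -1.11 and -0.78 on CET replicates 1, 2 and 3, and 0.19, -0.03 and -0.19 on VEH replicates 4, 5 and 6, so CET replicate 1 lay within the VEH arrays. The median was -0.28, -0.35 and -0.38 without CET replicate 3, CET replicate 2 and VEH replicate 4 in turn, -0.41 with cyclic loess and -1.03 with array medians subtracted. All 6 luteal markers with a probe set are also in this list, so the counts of both lists share genes.

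Within this list STAR had signals of 43965, 5408 and 8508 in CET replicates 1, 2 and 3, and 57984, 34265 and 34390 in VEH replicates 4, 5 and 6. On the deposited scale CET replicate 1 lay above VEH replicates 5 and 6, but after normalization all CET arrays lay below the VEH arrays, with a log2 fold change of -1.49 (SE 0.53, adjusted limma p = 0.827, exact permutation p = 0.1) that was -0.96 without CET replicate 2 and -0.98 with cyclic loess. HSD3B2, which makes P4 from pregnenolone, had a log2 fold change of -0.48 (SE 0.44) that was -0.15 without CET replicate 3, -0.078 with cyclic loess, -0.79 with the signals as deposited and -0.996 with array medians subtracted. GSTA1, a glutathione transferase of steroidogenic tissue, had signals of 1124, 808 and 578 in CET CL and of 5078, 1968 and 1690 in VEH CL, with a log2 fold change of -1.61 (SE 0.52). CYP11B1, an adrenal steroid hydroxylase, had 841, 728 and 685 in CET CL and 1564, 1517 and 4193 in VEH CL, with a log2 fold change of -1.50 (SE 0.49). CYP21A2, another adrenal hydroxylase of the list, was the 1 higher target with an unadjusted limma p below 0.05. Its signals were 512, 856 and 1325 in CET CL and 252, 142 and 122 in VEH CL. The log2 fold change was 2.22 (SE 0.59, adjusted limma p = 0.827, exact permutation p = 0.1). Both hydroxylases have near-identical copies in primates, and probes that also read a copy were not told apart. The other targets with an unadjusted p below 0.05, named after their values were seen, were HSD17B7, an enzyme of cholesterol and oestradiol synthesis, at -1.25 and PTX3, a matrix protein of the cumulus whose CET mean lay under the dim limit, at -1.64.

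Immediate early genes, the class to which NR4A1 and NR4A2 belong, were described from a list of 36 symbols, in which CYR61 and CTGF are older names of CCN1 and CCN2, also listed. Of these symbols 25 had a probe set and 24 were measured. The mean after CET was higher for 9 and lower for 15, where 49.9% of all probe sets had a lower mean, and the median log2 fold change was -0.09, which turned to 0.16 without CET replicate 2 and 0.0079 without VEH replicate 4 and was -0.43 without CET replicate 1. Subtraction of array medians gave -0.26. Both group means were above the dim limit for 22 of the 24, 8 with a higher and 14 with a lower mean. Their median was -0.09, and the rest count as measured only through 1 group. The list median relative to the VEH mean was 0.55, -0.49 and -0.39 on CET replicates 1, 2 and 3, and -0.02, 0.09 and 0.07 on VEH replicates 4, 5 and 6. CET replicate 1 was the highest array for 12 of the 24, NR4A1 among them, against 16.8% of all measured genes, and CET replicate 2 the lowest for 11, against 22.2% of all measured genes. KLF2, a flow-responsive factor of endothelium, was the 1 of 24 with an unadjusted p below 0.05, a share no higher than the 5.39% of all probe sets, with signals of 947, 1507 and 632 in CET CL and of 269, 332 and 142 in VEH CL and a log2 fold change of 1.96 (SE 0.58, adjusted limma p = 0.827, exact permutation p = 0.1). MCL1, an inhibitor of apoptosis, had a log2 fold change of 0.97 (SE 0.47) that was 0.61 without VEH replicate 5 and 0.49 with array medians subtracted.

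**Figure D4:**
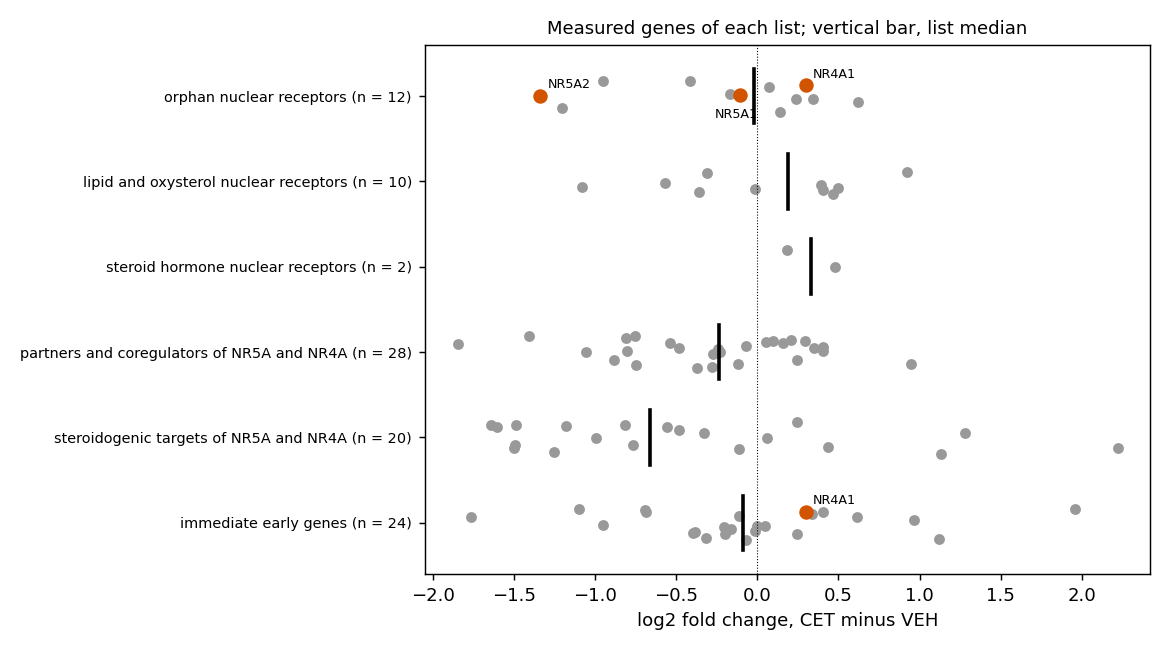
Log2 fold change (CET minus VEH, horizontal axis) of each measured gene of 6 lists, with 1 point per gene at its brightest probe set, NR5A1, NR5A2 and NR4A1 in orange and a bar at the list median. The medians run from -0.66 for the steroidogenic targets to 0.33 for the 2 steroid hormone receptors, and NR5A2 at -1.34 is the lowest orphan receptor.

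The genes whose values followed each receptor most closely over the 6 arrays were ranked by the mean absolute difference of log2 values centred on the mean of the arrays, over 10928 other measured genes. For NR5A2 the nearest was TMEM126B, an assembly factor of mitochondrial complex I, at 0.087, where the median gene lay at 0.97. Its signals were 355, 124 and 355 in CET replicates 1, 2 and 3, and 333, 1235 and 551 in VEH replicates 4, 5 and 6, with a log2 fold change of -1.34 (SE 0.65) that was -0.83 without VEH replicate 5, -0.89 without CET replicate 2 and -0.73 with the control ratio as a covariate. Next came SLC17A4, an anion transporter, RNF14, a ubiquitin ligase that binds the androgen receptor, HPS5, a factor of lysosome-related organelles, and UBE2G2, a ubiquitin-conjugating enzyme, at 0.16 to 0.19. For NR5A1 the nearest were SPACA7, a sperm acrosome protein, WDR64, ZNF669, ST3GAL6, a sialyltransferase, and TAS2R1, a bitter taste receptor, at 0.17 to 0.22, where the median gene lay at 1.07. SPACA7 had signals of 43.1, 392.2 and 569 in CET CL and of 174, 133 and 221 in VEH CL, with CET replicate 1 again lowest and CET replicates 2 and 3 highest. For NR4A1 the nearest were DHRS3, a retinal reductase, at 0.091 and TMEM107, INSYN1, OR8B12, an olfactory receptor, and GIGYF1 at 0.12 to 0.13, where the median gene lay at 0.65. DHRS3 had signals of 964, 532 and 518 in CET CL and of 734, 393 and 416 in VEH CL, with CET replicate 1 and VEH replicate 4 highest. The arrays share their RNA quality and scaling across all genes, and this likeness over 6 arrays is a description.

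**Figure D5:**
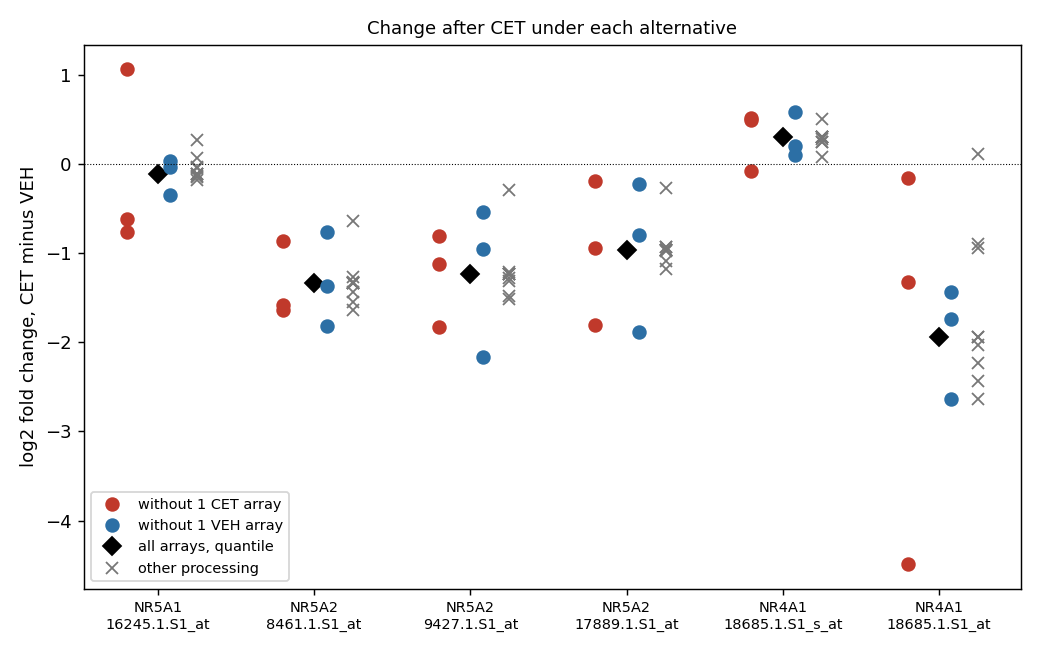
Log2 fold change (CET minus VEH, vertical axis) of the 6 member probe sets with all arrays (black diamond), without 1 CET array (red), without 1 VEH array (blue) and under the other processing alternatives (grey crosses). The NR5A2 values stay below 0 in every alternative drawn, between -2.16 and -0.20, whereas values of NR5A1 and of both NR4A1 probe sets fall on both sides of 0.

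Under the alternatives drawn in the plot of changes by setting, the NR5A2 probe sets kept a lower mean after CET each time, but no alternative brought any of them past an adjusted p of 0.05. The lowest adjusted p of a member in any alternative was 0.249, for the dim NR4A1 probe set without CET replicate 1. Over the alternatives the brightest NR5A2 probe set had an unadjusted limma p of 0.0174 (without VEH replicate 4) to 0.242 (without VEH replicate 5), and p was 0.0630 with cyclic loess, 0.10 without the trend, 0.0561 with dim probe sets left out, 0.105 with the floor and 0.208 with the control ratio as a covariate, beside 0.164 from the 2-group test of the methods.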

How the data were processed

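CL of 3 CET and 3 VEH samples were measured on 1 Affymetrix rhesus array each. The intensity values deposited by the authors are linear MAS5 signals with a trimmed mean of 500 on each array. For the MAS5 version and for detection calls, the sources used here give nothing. Signals under 1 (29 values) were set to 1, log2 values were quantile-normalized between arrays, and 52707 probe sets were tested after removal of 158 controls. The platform annotation held 1 symbol for 24956, more than 1 for 361 (left unnamed) and no symbol for 27390. Genes were represented by their brightest probe set, and dim probe sets were those below the 40th percentile of mean log2 signal (7.43). Groups were compared by limma 3.58.1 (R 4.3.3), with the variance trended on intensity and p adjusted by Benjamini-Hochberg. Fold changes are CET minus VEH on the log2 scale. Single values and differences between genes were tested by exact permutation of the 6 arrays (20 allocations). The test was first run on simulated data with independent noise, capped SDs and no array effects such as RNA quality. That setting differs from these arrays, so the run does not show how well the test works on them.

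The receptors and all lists were chosen with earlier results of these data known. Genes named are all member probe sets, the 3 genes of each list with the smallest unadjusted p, NR4A2, NR0B1, NR0B2, NR2F1, NR2F2, STAR, HSD3B2 and RPL19, and the 5 genes nearest to each receptor. Alternatives were the signals as deposited, array medians, cyclic loess, adding 16 to each signal and raising values under the 20th percentile to it. Further ones were removal of dim probe sets, no trend, array weights, Student's t-test and the control ratio of 3' to 5' signals as a covariate. Other probe sets and leaving out each array completed them. The number of arrays limits the precision.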

Additional observations from a re-analysis of the deposited data

How the results depend on the processing

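No paired analysis was possible because the labels number the CET samples 1 to 3 and the VEH samples 4 to 6 and share no number. Under each alternative, 0 probe sets had an adjusted p below 0.05. The signals as deposited moved the median log2 fold change of all probe sets to 0.17. NR5A1 had a log2 fold change of 0.071 with the signals as deposited, which is below that shift, of 0.26 with array weights, and of -0.76 to 1.06 when 1 array was left out. The brighter NR4A1 probe set gave -0.076 to 0.59 when 1 array was left out, and NR4A1 gave -1.94 when read at the dim probe set. The dim one gave 0.11 with the floor, and the filter on dim signals removes it. The difference in change of NR4A1 and NR5A1 was -1.13 to 1.25 when 1 array was left out. The count of probe sets at an unadjusted p of 0.05 was 1756 with dim probe sets left out, 5086 with array weights, and between 1694 (without VEH replicate 5) and 7020 (without CET replicate 1) when 1 array was left out. The causes were not tested.

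Among the other named genes, NR0B1 gave -0.093 with cyclic loess, -0.058 with the pseudocount, -0.42 with the floor, -0.28 with the covariate and -0.93 to 0.59 when 1 array was left out. NR2F1 gave -0.064 as deposited, -0.27 with array medians and -0.18 to 0.29 when 1 array was left out. NR3C1 gave -0.010 with array medians, -0.27 with array weights and -1.09 to 1.01 when 1 array was left out. PGR gave -0.028 with cyclic loess, -0.17 with array weights, -0.19 with the covariate and -0.61 to 1.02 when 1 array was left out. RPL19, a ribosomal protein gene, had -0.38 (SE 0.46) and gave -0.70 to 0.023. Of the genes near NR5A1, SPACA7 gave -0.071 with the covariate and -0.64 to 1.29 when 1 array was left out. WDR64 gave 0.15 as deposited, 0.29 with array weights and -0.66 to 1.03. ZNF669 gave 0.016 with array weights and -0.78 to 0.77. ST3GAL6 gave 0.057 with array weights and -1.15 to 0.79. TAS2R1 gave 0.12 as deposited, 0.28 with array weights and -0.70 to 0.97. Of those near NR4A1, TMEM107 gave -0.16 with array medians and -0.14 to 0.42, DHRS3 -0.12 to 0.52 and GIGYF1 -0.15 to 0.51.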
